A study of Mus musculus with 8 samples.

Results

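The genes described here are 3 Canopy genes, Cnpy2, Cnpy3 and Cnpy4, and 7 genes of protein folding in the endoplasmic reticulum (ER), Hsp90b1, Hspa5, Xbp1, Calr, Canx, Pdia4 and Dnajb9. They are 10 of the 24063 genes in the count tables, taken by gene symbol in all 8 RNA-seq libraries. Cnpy3 was chosen by its normalised counts in the comparison of doxycycline with DMSO, in which it was called, so its values in that comparison are given as a description, with no test. The other 9 were added because they are its relatives or act in the same compartment.

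Newly made secreted and membrane proteins fold in the ER with the help of chaperones. Hspa5 (BiP) is the ER member of the Hsp70 family and Hsp90b1 (GRP94) the ER member of the Hsp90 family. Calnexin (Canx) and calreticulin (Calr) are lectins that hold glycoproteins, and Pdia4 is a disulphide isomerase. When misfolded protein builds up, the sensors PERK, IRE1 and ATF6 start the unfolded protein response (UPR). IRE1 then splices the mRNA of the transcription factor Xbp1, and XBP1 and ATF6 raise the transcription of chaperone genes. Dnajb9 (ERdj4), a J-domain partner of BiP, is one of the XBP1 targets. Canopy proteins are small ER proteins. Cnpy3 (PRAT4A) works with GRP94 in the folding of Toll-like receptors, and its relative Cnpy4 (PRAT4B) has been linked to Toll-like receptor 4. Cnpy2 has been linked to the PERK arm of the UPR. Polycystin-2, the product of Pkd2, is a membrane glycoprotein and cation channel, much of which resides in the ER.

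The libraries came from kidney tubuloids, three-dimensional epithelial cultures grown from mouse pup kidneys, of postnatal days 7 to 10 by the labels and of a younger range by the study's methods. All 8 cultures carried Pkd2fl/fl, Pax8rtTA, TetOCre and the mTmG reporter, were kept for 7 days, and received doxycycline (DOX, 4 libraries) or DMSO (4 libraries) for 3 days from day 3. The Pax8 promoter drives the rtTA, so doxycycline turns on Cre only in Pax8-expressing epithelial cells, and recombination was incomplete. Every DOX culture carried Cre and floxed Pkd2, so the loss of Pkd2, the activity of Cre and doxycycline itself cannot be told apart. Libraries are named by group and by the replicate number in the labels, which does not pair the groups.

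Summed counts ran from 63922677 to 102716313 per library. Between 17054 and 17903 genes had counts in 6 of the libraries, against 13243 in DMSO 20 and 13599 in DOX 19. Pkd2, the targeted gene, had normalised counts of 4813 to 7538 in DMSO libraries and 4136 to 5952 in DOX libraries, which overlap (log2 −0.31, SE 0.215, n = 4 per group, adjusted p = 0.999 by DESeq2). These counts cover the whole gene and do not measure the protein. The study reported by western blot that polycystin-2 protein fell after doxycycline and was still detectable. Of the epithelial markers, Epcam was between 46.6 and 390 TPM over the 8 libraries and Pax8 between 29.2 and 117 TPM (transcript reads scaled by length and by library), and Esrp1 was at 0 in DMSO 20 and at 2.07 to 12.8 TPM elsewhere. Epithelial markers summed to 697 to 2875 TPM in DMSO libraries and to 885 to 1823 TPM in DOX libraries. Stromal markers summed to 213 to 2449 TPM in DMSO libraries and to 383 to 712 TPM in DOX libraries. DMSO 15 had the highest stromal and the lowest epithelial sum. Of 6 endothelial markers, Pecam1, Cdh5, Kdr and Tek were each under 1 TPM, Esam reached 3.30 TPM and Emcn was at 10.9 to 78.9 TPM. In bulk libraries, fewer cells of a type and less RNA per cell cannot be told apart.

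One library stood apart for the ER genes and bears on most of what follows. DOX 9 held the highest normalised count of the 8 libraries for 7 of the 10 genes (70.0%), against 10.1% of the 17011 genes with an adjusted p. Cnpy3 is among the 7, and its choice favoured a DOX library as its highest. The values of the 10 genes are therefore given library by library, and their fold changes with and without DOX 9.

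The promoters show what several of the chaperone genes share in sequence. The ER stress response element (ERSE) is the sequence to which ATF6 and XBP1 bind, with NF-Y on its CCAAT part. It was searched as CCAAT and CCACG with 9 unspecified bases between them, on both strands in windows from 250 bases before to 50 bases after each start site (RefSeq, GRCm38.p6). All 10 genes matched a promoter in that table. An exact ERSE lay in the windows of 4 of the 10 genes, against 39 of 32851 promoters (0.119%). The 5 matches are shown because they set Hsp90b1, Hspa5, Calr and Canx apart from the Canopy genes, with the fixed CCAAT and CCACG parts in capitals and each read on the strand that matched.
Hspa5, chr2:34772025-34772043: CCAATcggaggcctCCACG
Hsp90b1, first, chr10:86705638-86705656: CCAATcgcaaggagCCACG
Hsp90b1, second, chr10:86705533-86705551: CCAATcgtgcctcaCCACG
Calr, chr8:84847075-84847093: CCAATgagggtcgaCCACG
Canx, chr11:50325800-50325818: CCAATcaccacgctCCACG

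The nearest of these to a start site was that of Hspa5, beginning 65 bases before it. The whole windows of Hspa5, Hsp90b1 and Cnpy3 are shown to set a window with 1 match beside one with 2 and one with none. Each is written 5′ to 3′ on the strand of its gene, with ERSE letters in capitals. The Cnpy3 window lies wholly inside the annotated span of the gene, so the table's start site is not the outermost one.
Hspa5, chr2:34771840-34772139, plus strand: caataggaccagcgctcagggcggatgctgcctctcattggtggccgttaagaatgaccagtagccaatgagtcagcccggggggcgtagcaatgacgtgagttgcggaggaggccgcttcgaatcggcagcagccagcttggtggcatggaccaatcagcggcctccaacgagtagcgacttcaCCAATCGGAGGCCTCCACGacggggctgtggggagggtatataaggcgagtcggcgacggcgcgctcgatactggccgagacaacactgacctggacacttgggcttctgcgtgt
Hsp90b1, chr10:86705395-86705694, minus strand: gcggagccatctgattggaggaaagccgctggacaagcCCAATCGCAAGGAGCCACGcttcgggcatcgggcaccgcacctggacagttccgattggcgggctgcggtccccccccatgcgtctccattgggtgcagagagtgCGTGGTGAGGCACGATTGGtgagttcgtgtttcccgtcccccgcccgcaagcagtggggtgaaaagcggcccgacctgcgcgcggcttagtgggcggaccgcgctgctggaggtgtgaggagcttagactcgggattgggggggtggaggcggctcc
Cnpy3, chr17:46752165-46752464, minus strand: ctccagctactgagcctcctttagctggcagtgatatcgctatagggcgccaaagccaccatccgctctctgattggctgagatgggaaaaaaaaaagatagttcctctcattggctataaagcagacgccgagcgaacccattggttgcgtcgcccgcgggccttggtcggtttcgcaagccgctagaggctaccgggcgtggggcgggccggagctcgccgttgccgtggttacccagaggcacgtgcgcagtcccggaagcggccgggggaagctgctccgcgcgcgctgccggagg

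No exact ERSE was found in the windows of Cnpy2, Cnpy3, Cnpy4, Xbp1, Pdia4 or Dnajb9. The related elements ERSE-II (ATTGG and CCACG with 1 unspecified base between them) and UPRE (TGACGTGG), searched on both strands, were found in none of the 10 windows, and in 0.0365% and 0.676% of all promoters. The CCACG core, which is part of ERSE and of ERSE-II, was found in 8 of the 10 windows and in 32.8% of all promoters. A match is a description of the letters and not a measured binding site, and its absence says only that these letters are not in the window.

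The genes differed widely in level. On the TPM scale, with the most abundant annotated transcript standing for each gene (mean ± SD, n = 8 libraries), Hspa5 was highest at 930 ± 526, followed by Calr at 605 ± 205, Hsp90b1 at 545 ± 415 and Pdia4 at 360 ± 280. Cnpy2 at 320 ± 76.4 lay among the chaperones, followed by Xbp1 at 210 ± 46.3 and Canx at 193 ± 45.1. Dnajb9 at 42.1 ± 16.6, Cnpy3 at 39.0 ± 12.1 and Cnpy4 at 24.4 ± 4.50 TPM formed the low end. Hsp90b1 over Pdia4, Cnpy2 over Xbp1, Canx over Dnajb9 and Cnpy3 over Cnpy4 held in 8 of 8 libraries. Hspa5 was over Calr in 7. Calr was over Hsp90b1 in 6, and Dnajb9 over Cnpy3 in 6. Xbp1 was over Canx in 4, so these were not separated. Pdia4 was over Cnpy2 in only 2 libraries, DOX 9 (1035 against 286 TPM) and DOX 12 (380 against 368 TPM), so the order of their means was reversed in the other 6.

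The order depends on how transcripts are counted. The tables list 2 transcripts for Hspa5, 2 for Xbp1 and 3 for Canx, and these transcripts carry nearly the same reads. Summing TPM over them gave 1891 for Hspa5, 417 for Xbp1 and 580 for Canx, which moved Canx to the third place. The 2 Xbp1 transcripts, 2221 and 2247 bases long, differ by 26 bases, the length of the segment that IRE1 removes, and had identical counts in every library. Spliced and unspliced Xbp1 can therefore not be told apart in these values.

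Cnpy3 was the 1 gene of the 10 called by DESeq2 (adjusted p at or under 0.05 and a change of at least 1.5-fold), where 0.147% of the 17011 genes were called. It was chosen from this comparison, so the call and the separation of its groups are descriptions. It lies at chr17:46735711-46752713 (GRCm38). Its normalised counts were 2404, 2124, 2474 and 2059 in DMSO 3, 5, 15 and 20, and 4251, 3447, 4072 and 3423 in DOX 9, 12, 19 and 21. All 4 DOX libraries lay above all 4 DMSO libraries, as they did for 1.66% of all genes, and no other gene of the 10 had groups that did not overlap. The log2 fold change was 0.75 (SE 0.153, n = 4 per group), and 0.69 without DOX 9. Cnpy3 had the smallest spread of the set, with a within-group SD of 0.15 on the log2 scale, against a median of 0.46 over the 10 genes and 0.69 over all genes. A call at this fold change needs a small spread, so this ranking follows from the choice of Cnpy3. The call was not made without DOX 19 (log2 0.72), without both libraries of few genes (log2 0.69) or by edgeR (log2 0.74), which called 0 of 15562 genes, with 476 (3.06%) at an unadjusted p under 0.05.

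On the TPM scale, Cnpy3 was at 26.9 to 30.2 in DMSO libraries and at 43.3 to 53.6 in DOX libraries. Divided by Cnpy4 in the same library, it was at most 1.60 in DMSO, and 1.64 to 2.51 in DOX. Divided by Cnpy2, it was 0.0858 to 0.123 in DMSO and 0.187, 0.143, 0.192 and 0.0921 in DOX 9, 12, 19 and 21, so the groups overlapped through DOX 21. The TPM of Hsp90b1, which encodes the partner chaperone of Cnpy3, was 11.7 to 16.0 times that of Cnpy3 in DMSO. In DOX 12, 19 and 21 it was 9.39, 5.80 and 8.37 times that of Cnpy3, and in DOX 9 it was 29.1 times. Cnpy3 is in all these ratios, so they too are descriptions. Hsp90b1 itself was at 353 to 444 TPM in DMSO, and at 1561, 493, 291 and 362 TPM in DOX 9, 12, 19 and 21.

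None of the 11 genes with counts that lie within 100 kb of Cnpy3 was called, and none overlaps it. Their log2 fold changes ran from −2.09 for Ptcra, with group means of 2.74 and 0.637 counts, to 0.30 (SE 0.302) for the peroxisome biogenesis gene Pex6, and the groups overlapped for all 11.

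The other Canopy genes overlapped between the groups. Cnpy2 had normalised counts of 13335, 13255, 15452 and 8962 in DMSO 3, 5, 15 and 20, and of 12157, 12920, 11377 and 19912 in DOX 9, 12, 19 and 21. Only DOX 21 lay above every DMSO library, and the log2 fold change was 0.14 (SE 0.282), or 0.21 without DOX 9. Cnpy4 had 1762, 1249, 2320 and 1548 in DMSO, and 2065, 1948, 1524 and 1957 in DOX, in the same order of libraries, with a log2 fold change of 0.12 (SE 0.254), or 0.07 without DOX 9. Its highest and its lowest values were both DMSO libraries. DESeq2 gave both genes an adjusted p of 0.999. The rest of the family is named after its values were seen. Cnpy1 had no counts in any library, and Mzb1, a plasma cell relative of the Canopy proteins that also works with GRP94, had counts in only 2 libraries, at most 7.05.

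**Figure D1:**
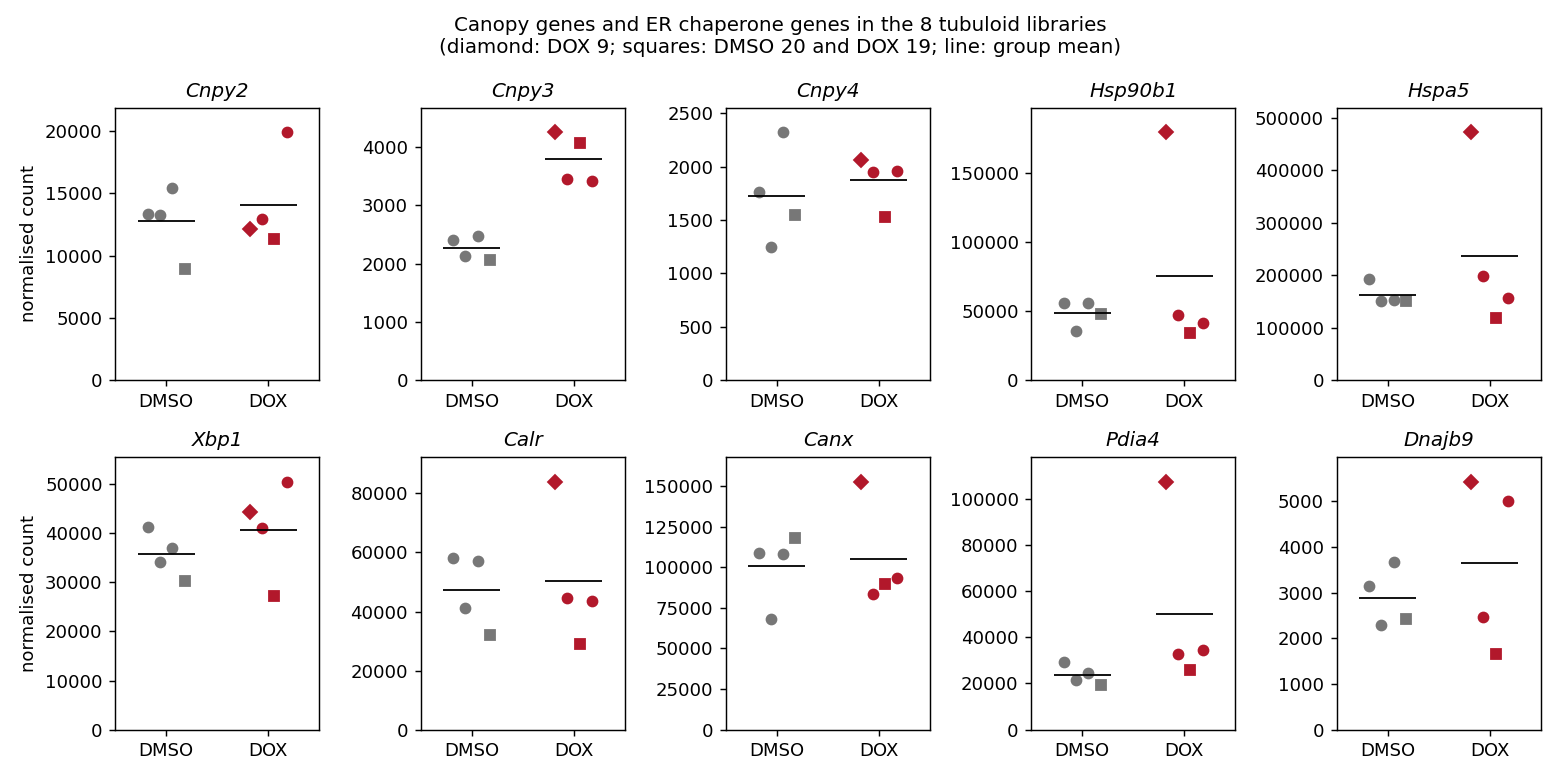
Normalised counts (linear axis from 0) of the 10 genes in the 4 DMSO and 4 DOX libraries, with 1 point per library and a line at each group mean. Diamonds are DOX 9 and squares are DMSO 20 and DOX 19. The groups are apart for Cnpy3, at 2059 to 2474 against 3423 to 4251, and for Hsp90b1, Hspa5 and Pdia4 the diamond stands alone.

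Hspa5, Hsp90b1 and Pdia4 were far higher in DOX 9 than in any other library. Hspa5 had normalised counts of 193450, 151703, 152813 and 151768 in DMSO 3, 5, 15 and 20, and of 472594, 199526, 117702 and 157674 in DOX 9, 12, 19 and 21. DOX 9 was 3.09 times the median of the other 7 libraries, DOX 12 was slightly above the highest DMSO library, and DOX 19 was the lowest of all. The log2 fold change of 0.54 (SE 0.452) was −0.037 without DOX 9.

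Hsp90b1 had 55719, 36043, 55773 and 47795 in DMSO, and 179813, 47031, 34352 and 41630 in DOX. DOX 9 was 3.82 times the median of the other 7, and the remaining DOX libraries lay within or below the DMSO range. The log2 fold change turned from 0.63 (SE 0.564) to −0.25 without DOX 9.

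Pdia4 had 29277, 21442, 24697 and 19121 in DMSO, and 107235, 32559, 25802 and 34301 in DOX. DOX 9 was 4.16 times the median of the other 7, the highest such ratio of the 10 genes. Here DOX 12 and DOX 21 also lay above every DMSO library, and DOX 19 lay within their range. The log2 fold change of 1.08 (SE 0.493) was the largest of the set and was 0.39 without DOX 9. Its adjusted p was 0.845 with DESeq2 (unadjusted 0.0283) and 0.999 with edgeR (unadjusted 0.0406). Pdia4 spans chr6:47796141-47813512 and contains the microRNA gene Mir704, whose reads may be those of Pdia4. Hspa5 also overlaps an annotated gene, Rabepk.

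The lectin chaperones varied less. Calr had 58169, 41312, 56978 and 32143 in DMSO, and 83950, 44563, 28934 and 43531 in DOX. Canx had 108955, 68003, 108416 and 117674 in DMSO, and 152562, 83349, 89829 and 93257 in DOX. For both genes DOX 9 was the highest library and the other 3 DOX libraries lay within or below the DMSO range. The log2 fold changes were 0.09 (SE 0.390) for Calr and 0.06 (SE 0.297) for Canx, and −0.27 and −0.18 without DOX 9.

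Xbp1 had 41175, 34150, 36965 and 30367 in DMSO, and 44220, 41004, 27284 and 50468 in DOX. DOX 21 was its highest library and DOX 9 the next, at 1.20 times the median of the other 7. Dnajb9 had 3154, 2282, 3668 and 2428 in DMSO, and 5425, 2457, 1664 and 5001 in DOX. DOX 9 and DOX 21 lay above every DMSO library and DOX 19 below all of them. The log2 fold changes were 0.19 (SE 0.243) for Xbp1 and 0.34 (SE 0.434) for Dnajb9, and 0.15 and 0.08 without DOX 9. Apart from Pdia4, every chaperone gene and Xbp1 had a DESeq2 adjusted p of 0.999.

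**Figure D2:**
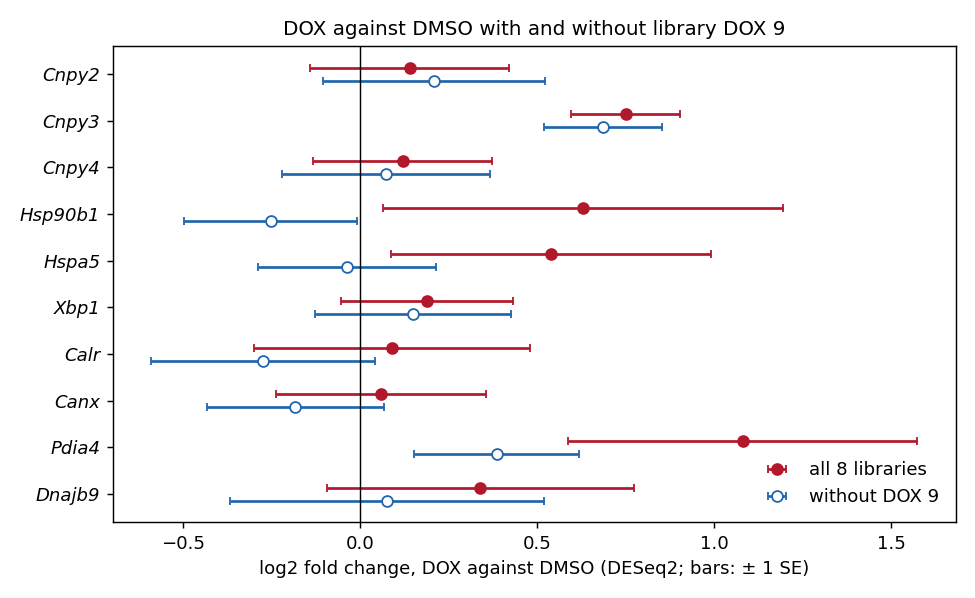
Log2 fold changes of DOX against DMSO from DESeq2 for the 10 genes, with all 8 libraries (filled) and without DOX 9 (open). Bars are 1 standard error. Without DOX 9, Hsp90b1 moved from 0.63 to −0.25, Pdia4 from 1.08 to 0.39 and Cnpy3 from 0.75 to 0.69.

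Added over the 10 genes, transcript levels made up 2527 to 2844 TPM in the DMSO libraries. The sums in DOX 9, 12, 19 and 21 were 6754, 3585, 2067 and 3006 TPM. DOX 19 was thus below and the other 3 DOX libraries were above the DMSO range, with DOX 9 far above it.

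DOX 9 also held other UPR genes at high levels, which are named here after their values were seen. Ddit3 (CHOP), a transcription factor induced through PERK, had a normalised count of 23322 in DOX 9 against 1749 to 5302 in the other 7 libraries. Atf4, which acts upstream of Ddit3, had 42738 against 15191 to 23657. The ER-associated degradation genes Herpud1 and Sel1l had 23532 against 3282 to 8532 and 52984 against 12953 to 17983. For these 4 genes DOX 9 lay at least as far above the next library as that library lay above the lowest.

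The ER chaperone and co-chaperone genes Hyou1 and Creld2 had 13752 against 2087 to 4506 and 15181 against 2830 to 3648. Derl3, which takes part in the export of misfolded proteins from the ER, had 6403 against 0 to 333. For Ddit3, Creld2 and Derl3, DESeq2 returned no p because of the 1 extreme count. DOX 9 did not stand apart in depth (98303226 counts, 17903 genes). Its summed marker levels were 1823 TPM for epithelial, 678 for stromal, 16.4 for endothelial, 5.72 for macrophage and 0.684 for B and plasma cell genes, each within the range of the other 7 libraries. The part of cell make-up in the DOX 9 values was not tested.

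Cnpy3 and the chaperones were both high in DOX 9 and went apart in DOX 19. Cnpy3 was chosen for a difference between the groups, so its high values in these libraries are a description. DOX 19, one of the libraries of few genes, was the lowest of the 8 libraries for Hspa5, Hsp90b1, Calr, Xbp1 and Dnajb9 and the second highest for Cnpy3, at 4072. Relations with Hspa5 were computed for the other 9 genes over the 8 libraries on log2 normalised counts, with exact two-sided permutation tests adjusted over the 9. Hsp90b1 (Pearson r = 0.95, p = 0.00722, adjusted p = 0.0325) and Calr (r = 0.84, p = 0.00402, adjusted p = 0.0325) passed for r. Their Spearman rho of 0.69 (permutation p = 0.0694, adjusted p = 0.125) and 0.86 (permutation p = 0.0107, adjusted p = 0.0827) did not. Without DOX 9 and DOX 19, the libraries farthest from the median of Hspa5, r was 0.37 for Hsp90b1 and 0.40 for Calr, so both relations rest on those libraries.

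Pdia4 had an r of 0.92 with Hspa5 (permutation p = 0.0212, adjusted p = 0.0636) and a rho of 0.76 (permutation p = 0.0368, adjusted p = 0.0827), and an r of 0.62 without those 2 libraries. Cnpy3, whose values were chosen for setting the groups apart, had an r and a rho of 0.40, given as a description. Its r was 0.47 without DOX 9 and DOX 19, −0.23 without DOX 9 alone and 0.74 without DOX 19 alone. The remaining genes had r between −0.05 (Cnpy2) and 0.66 (Canx and Dnajb9), with adjusted p from 0.141 to 0.895. These r pool both groups.

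**Figure D3:**
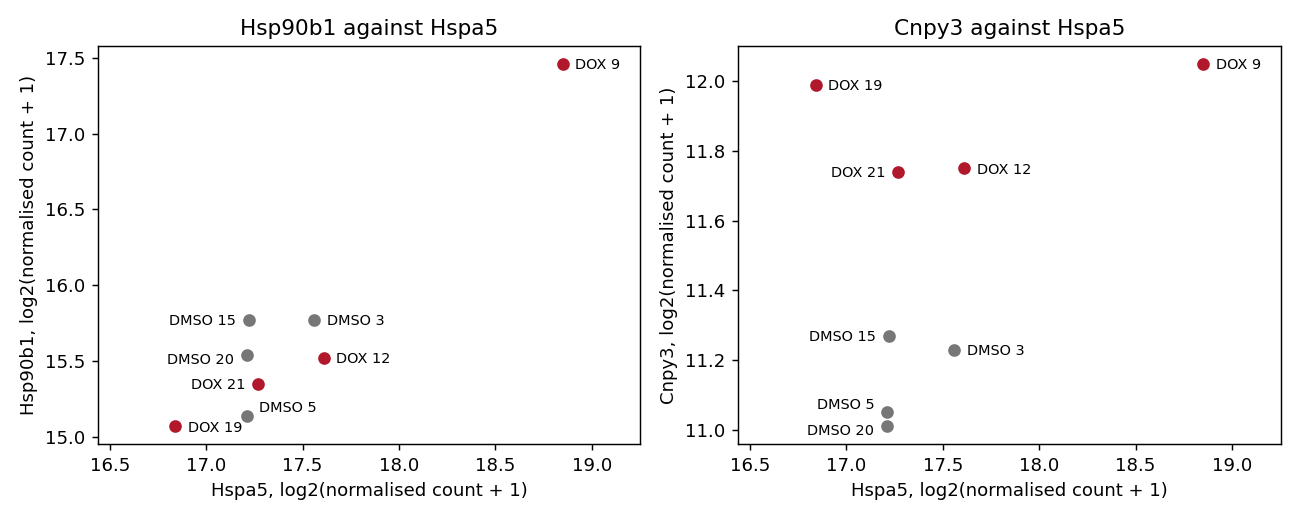
Log2 normalised counts of Hsp90b1 (left) and Cnpy3 (right) against those of Hspa5, with 1 point per library, DMSO in grey and DOX in red. Hsp90b1 and Hspa5 are both far higher in DOX 9 (r = 0.95 with it and 0.65 without it), whereas DOX 19 joins the lowest Hspa5 with the second highest Cnpy3. The high Cnpy3 values in DOX follow from its choice and are a description.

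The genes whose pattern was most like that of each were found by Pearson's r of log2 normalised counts, centred within each group, among 13248 genes over the 8 libraries. For Hspa5 they were Pak3 (0.973), Mir704 (0.971), Nucb2 (0.970), Pdia4 (0.961) and Lrrc28 (0.954), all highest in DOX 9. Pak3, a p21-activated kinase, had 18812 in DOX 9 against 1720 to 7719 elsewhere, and Nucb2, the precursor of nesfatin, had 4901 against 664 to 1626. For Cnpy3 they were Lonp1 (0.969), Atxn7l3 (0.950), Nelfb (0.946), Hk1 (0.946) and Zfp444 (0.937). Lonp1, the mitochondrial matrix protease, had 10083 in DOX 9 against 2371 to 7426 elsewhere and a log2 fold change of 1.04. With only 5 of 13248 genes listed, the absence of the other genes described here says little about their likeness to Cnpy3. The best of 13248 genes over 8 libraries can reach a high r without a relation, and none of these r was tested.

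The wider machinery was read through 8 lists of 149 genes in all. DESeq2 called 0 of the 139 that had an adjusted p, against 0.147% of all genes. Of the 139, 10 had an unadjusted p under 0.05 (7.19%, against 5.28% of all genes). All 10 were higher in DOX, as were 423 of the 899 such genes over all genes. Without DOX 9, 6 list genes had an unadjusted p under 0.05, and 0 were called. With edgeR, 0 of 140 were called and 7 had an unadjusted p under 0.05. The highest library was DOX 9 for 61 of the 139 genes (43.9%). Their median log2 fold change was 0.21 with all libraries and 0.05 without DOX 9, against −0.07 over all genes with all libraries. All DOX libraries lay above all DMSO libraries for 7 of the 139, against 282 of the 17011 genes (1.66%). All DOX libraries lay below for 0 of the 139, against 186 of the 17011 genes. The 7 were Dnajb11, Txndc16, Aup1, Sel1l, Ufd1l, Hspa9 and Hspd1, of which Sel1l and Ufd1l were named after their values were seen.

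Of 19 Toll-like receptors and partners, a list wider than the clients of Cnpy3, 14 had an adjusted p. Their median log2 fold change was −0.71 (−0.73 without DOX 9), and none was highest in DOX 9. The values ran from −5.48 to 0.75 with 6 of the 14 above 0, and the lowest were those of Tlr13 and Tlr8, with no more than 22.1 counts in any library. Tlr4, with 1574 to 3756 counts, was at 0.04. Tlr1, at log2 3.01, is not in the median, because DESeq2 gave no p for its extreme count of 1138 in DOX 19. Tlr1, Tlr4 and Tlr8 were named after their values were seen. Cd14, a co-receptor of bacterial lipopolysaccharide, had 843 to 3962 in DMSO and 616 to 2267 in DOX (log2 −0.98, SE 0.592, and −1.52 without DOX 9). Ly96 (MD-2), the partner of Toll-like receptor 4, had 907 to 2375 in DMSO and 1852 to 5404 in DOX (log2 0.71, SE 0.461, and 0.80 without DOX 9). Lrrc32 (GARP), which holds latent TGF-beta and is a client of GRP94, had 1310 to 12943 in DMSO and 2695 to 3368 in DOX (log2 −0.89, SE 0.608, and −0.91 without DOX 9). Its DMSO mean rests largely on DMSO 15, at 12943, against 1310 to 4348 in the other DMSO libraries. These 3 genes had an adjusted p of 0.999 with DESeq2 and overlapped between the groups. Tlr13 had 0 to 18.1 in DMSO and 0 in every DOX library. Tlr9 and Tlr11, also named for their values, had no counts. Summed markers of macrophages, cells that carry many of these receptors, were 6.40 to 22.4 TPM in DMSO and 0.00680 to 5.72 TPM in DOX. These low sums came from different genes, with Ptprc at 7.10 in DMSO 5, Lyz2 at 13.3 in DMSO 15 and Cd68 at 10.2 TPM in DMSO 20. Csf1r was under 1 TPM in every library, and C1qa and C1qb were above 0 only in DMSO 15. The part of such cells in the receptor values was not tested.

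UPR sensors and factors had a median of 0.28 over 13 of 15 genes (0.25 without DOX 9), and 7 of the 13 (53.8%) were highest in DOX 9. Ppp1r15a (GADD34), which ends the PERK response, had 1119 to 2989 in DMSO and 1747 to 5460 in DOX (log2 1.02, SE 0.517, DESeq2 adjusted p = 0.942), and its log2 fold change was 0.70 without DOX 9. Atf4 stood at log2 0.57 (SE 0.311, DESeq2 adjusted p = 0.986), and at 0.27 without DOX 9. Creb3, an ER-bound transcription factor, stood at log2 0.22 (SE 0.208), and at 0.25 without DOX 9, with DOX 19 its highest library.

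Co-chaperones of the ER had a median of 0.22 over 20 of 21 genes (0.03 without DOX 9), 11 of them (55.0%) highest in DOX 9. Dnajb11 (ERdj3), a J-domain partner of BiP, had 15893 to 20804 in DMSO and 21130 to 38004 in DOX, with no overlap (log2 0.53, SE 0.251, DESeq2 adjusted p = 0.873, and log2 0.30 without DOX 9). The prolyl isomerase gene Fkbp9 stood at log2 0.52 (SE 0.332), and at 0.45 without DOX 9. The most abundant genes of the list were Ppib, another prolyl isomerase, at log2 −0.09 (SE 0.298), and Serp1, which binds the translocon, at log2 −0.03 (SE 0.240). Without DOX 9 they stood at −0.25 and −0.18.

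Protein disulphide isomerases and their partners had a median of 0.04 over 20 of 21 genes (−0.08 without DOX 9), with 9 (45.0%) highest in DOX 9. Txndc16, a thioredoxin-domain protein, came nearest to the threshold of all list genes. It had 848 to 1295 in DMSO and 1680 to 2017 in DOX, with no overlap (log2 0.70, SE 0.194, DESeq2 adjusted p = 0.113, edgeR adjusted p = 0.999). Its highest library was DOX 19, and the log2 fold change without DOX 9 was 0.73. Txndc5, another thioredoxin-domain protein, had 41918 to 81909 in DMSO and 74650 to 99546 in DOX (log2 0.54, SE 0.261, DESeq2 adjusted p = 0.893, and log2 0.45 without DOX 9). P4hb and Pdia3, the most abundant members at 800 ± 285 and 694 ± 208 TPM (SD, n = 8), had log2 fold changes of −0.09 (SE 0.463) and 0.07 (SE 0.334), and −0.38 and −0.25 without DOX 9.

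The calnexin cycle, which folds glycoproteins through Canx and Calr, had a median of 0.28 over 13 of 13 genes (0.15 without DOX 9), 7 of them (53.8%) highest in DOX 9. Ganab, the catalytic subunit of glucosidase II, had 14501 to 26723 in DMSO and 18665 to 39953 in DOX (log2 0.45, SE 0.317, and 0.21 without DOX 9). Calr4, a calreticulin relative, had 0 to 141 in DMSO and 0 to 1255 in DOX, with DOX 21 the highest. The cargo receptor genes Mcfd2 and Lman2 stood at log2 0.10 (SE 0.396) and 0.21 (SE 0.209), and at −0.21 and 0.09 without DOX 9.

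ER-associated degradation had a median of 0.25 over 22 of 23 genes (0.10 without DOX 9), 11 of them highest in DOX 9. Herpud1 had the largest value of the 22 genes with an adjusted p (log2 1.33, SE 0.517, DESeq2 adjusted p = 0.647), and 0.63 without DOX 9. Aup1, which helps recruit the degradation machinery, had 4647 to 6077 in DMSO and 6145 to 8633 in DOX, with no overlap (log2 0.45, SE 0.190, adjusted p = 0.787, and log2 0.42 without DOX 9). Vimp and Vcp, which form part of the export machinery, stood at log2 0.22 (SE 0.208) and 0.32 (SE 0.184), and at 0.18 and 0.27 without DOX 9.

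Genes of the translocon and of signal peptide handling had a median of 0.05 over 22 of 22 genes (0.02 without DOX 9), with 11 of the 22 highest in DOX 9. Srpr and Srprb, subunits of the signal recognition particle receptor, stood at log2 0.44 (SE 0.224) and 0.52 (SE 0.267), with DESeq2 adjusted p of 0.942 and 0.945, and at log2 0.35 and 0.37 without DOX 9. The most abundant genes, the translocon subunit Sec61b and the signal peptidase subunit Spcs1, stood at log2 −0.29 (SE 0.327) and −0.05 (SE 0.323), and at −0.36 and 0.06 without DOX 9. Chaperones outside the ER had a median of 0.05 over 15 of 15 genes (0.04 without DOX 9), with 5 (33.3%) highest in DOX 9. The mitochondrial chaperones Hspa9 and Hspd1 did not overlap between the groups. Hspa9 had 12700 to 19768 in DMSO and 22825 to 55891 in DOX (log2 0.94, SE 0.346, DESeq2 adjusted p = 0.528), and Hspd1 had 8758 to 11981 and 12228 to 16402 (log2 0.46, SE 0.181, DESeq2 adjusted p = 0.683). Without DOX 9 they stood at log2 0.59 and 0.37. The cytosolic Hsp90ab1 and Hspa8 were at 0.32 (SE 0.187) and 0.11 (SE 0.221), and at 0.26 and 0.08 without DOX 9, and overlapped between the groups. DESeq2 gave an adjusted p of 0.999 to each of these and to Creb3, Fkbp9, Ppib, Serp1, P4hb, Pdia3, Ganab, Calr4, Mcfd2, Lman2, Vimp, Vcp, Sec61b and Spcs1.

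**Figure D4:**
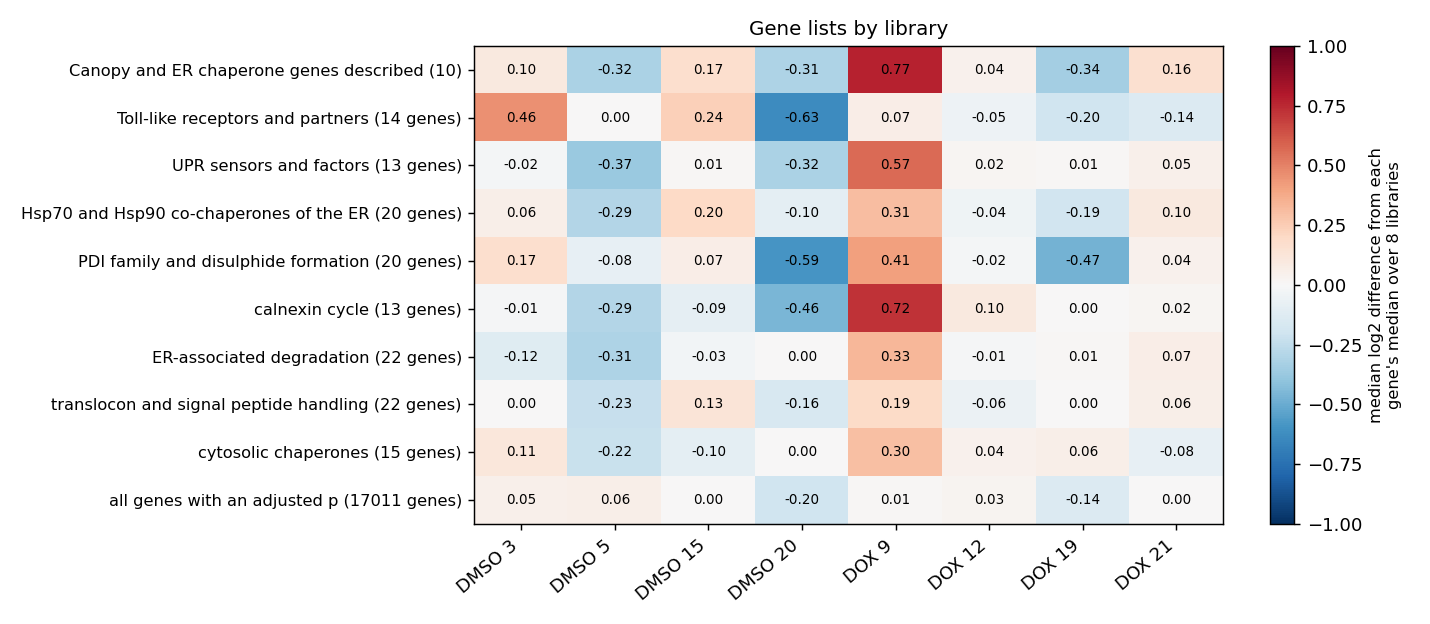
Median over the genes of each list of the log2 normalised count minus that gene's median over the 8 libraries, by library (colour and number, log2 scale). The number of genes is in brackets. DOX 9 stands at 0.77 for the 10 Canopy and chaperone genes, 0.72 for the calnexin cycle and 0.57 for the UPR list, against 0.01 for all genes.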

How the data were processed

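RNA was sequenced from 4 DOX and 4 DMSO tubuloid cultures. Per the submitters' processing notes, STAR, featureCounts and DESeq2 were used, and their versions are not given in the sources used here. The authors deposited 1 table per library with counts, FPKM and TPM for each annotated transcript on mm10. The deposited counts are raw reads per transcript, the deposited TPM are scaled by transcript length and library size by the authors, and the deposited FPKM were not used.

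Counts were summed by gene symbol over 24063 genes. Reads shared by isoforms are thereby counted more than once. DESeq2 1.42.0 (Wald test, independent filtering at 0.1, no other filter, R 4.3.3) compared DOX with DMSO with no covariate, and p-values were adjusted by Benjamini-Hochberg over 17011 genes. Calls needed an adjusted p of at most 0.05 with a change of 1.5-fold or more. edgeR 4.0.16 (quasi-likelihood), a count minimum of 10 in every library, DESeq2 without its filters, TMM size factors in DESeq2, one transcript per gene, TPM with a pseudocount of 1 (for the relations), each library left out, and both DMSO 20 and DOX 19 left out were the alternatives. The steps were tested on simulated data. DESeq2 gave no p for 366 genes with counts, because of an extreme count. Whether the libraries came from separate animals is not given, so p-values measure the spread between these samples.

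The 10 genes and all gene lists were chosen with earlier results of these data known. Within each list the text names genes by one rule: every called gene, the 2 with the smallest unadjusted DESeq2 p and the 2 with the highest mean TPM; any other gene is said to be named after its values were seen. Likeness needed a mean normalised count of at least 100.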

Additional observations from a re-analysis of the deposited data

Results flagged for a closer look

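Hspa5 in DMSO 3 lay far from the other DMSO libraries, at a normalised count of 193450 against 151703 to 152813, a gap of 0.970 of the range of the group on the log2 scale. Canx in DMSO 5 lay below the others, at 68003 against 108416 to 117674, a gap of 0.851 of the range on the log2 scale. These were 2 of 20 groups examined (10 genes in DMSO and in DOX, all on the log2 scale), and chance gives about 1 in 20.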

How the results depend on the processing

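With all 17011 genes, 25 were called, against 0 with edgeR (476 at an unadjusted p under 0.05), 16 with at least 10 counts in every library, 44 with the Cook and independent filters off, 51 without DMSO 20 and DOX 19, and 14 to 75 when each library was left out. Of the 10 genes 1 was called, against 0 with edgeR, 0 without DMSO 20 and DOX 19, and 0 to 1 when each library was left out, the 0 being without DOX 19. The log2 fold change of Cnpy3, for which it was chosen, ran from 0.69 to 0.79. For the other 9 genes no alternative brought a call, and the sign turned in 7 of 126 results, which were left-out libraries. Leave-one-out log2 fold changes ran from −0.066 (without DOX 21) to 0.25 for Cnpy2, from −0.25 (without DOX 9) to 0.89 for Hsp90b1, from −0.037 (without DOX 9) to 0.78 for Hspa5, from −0.27 (without DOX 9) to 0.29 for Calr and from −0.18 (without DOX 9) to 0.15 for Canx. Calr was also negative without DMSO 20 (−0.056) and Canx without DMSO 5 (−0.09). The number of relations with Hspa5 past the threshold was 2, 0 without DMSO 20 and DOX 19, and 0 to 5 when each library was left out. It was 3 on TPM, where Pdia4 also passed (permutation test, adjusted p = 0.0338). It was 0 without DMSO 3, DMSO 5, DMSO 20, DOX 9 or DOX 19. Among these, r with Hsp90b1 was 0.65 without DOX 9 and 0.95 to 0.96 without the others. For Calr, r was 0.69 without DOX 9 and 0.80 to 0.86 without the others. The r of Hspa5 with Cnpy2 was 0.022 on TPM and −0.22 to 0.19 when each library was left out, and that with Cnpy3 was −0.23 to 0.74. Taking 1 transcript per gene moved the mean TPM of Hspa5 from 1891 to 930, of Xbp1 from 417 to 210 and of Canx from 580 to 193, since their transcripts share reads. The cause of the other changes was not tested. No paired analysis was possible because the groups share no replicate numbers.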
